A study of Mus musculus with 10 samples.

Results

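Regions where acetylation of histone H3 lysine 9 (H3K9ac) was enriched in undifferentiated 3T3-L1 cells were compared with those enriched 24 h after the start of adipocyte differentiation. 3T3-L1 is a mouse fibroblast line that turns into fat cells in culture. The members are all regions of the deposited 0 h and 24 h H3K9ac lists. The 0 h list holds 4429 regions and the 24 h list 1629, together 6058 of the 13903 H3K9ac regions and 49015 intervals of all kinds in the series. Each list comes from 1 chromatin immunoprecipitation and sequencing (ChIP-seq) library. Both libraries were made from the unmodified line with the same antibody, before (0 h) and 24 h after differentiation was induced, and the labels give no genotype, clone or agent beyond that. The 240 h H3K9ac list (7845 regions), C/EBPβ peak lists from 0 h and 6 h and a 6 h list for the glucocorticoid receptor (GR) serve here as context. C/EBPβ is a transcription factor.

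Acetylation of H3 lysine 9 is placed by acetyltransferases of the GCN5 and PCAF type and removed by histone deacetylases. It marks active promoters and enhancers, so gain or loss of the mark away from gene starts is read in this field as a sign of enhancer use. In preadipocytes, C/EBPβ is induced early by the hormone mixture that starts differentiation, and GR is the receptor for the glucocorticoid that such mixtures usually hold. Both act ahead of the later adipocyte regulators PPARγ and C/EBPα.

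The lists are selections. They give only regions away from transcription start sites, and a region of the 0 h list was enriched at 0 h against 24 h or against 240 h, without saying which. The 24 h list was made likewise against 0 h or 240 h. A 0 h region is therefore not shown to have lost acetylation by 24 h. All region edges fell on a 50 bp grid. The libraries' read totals are not given, so their depth is unknown. No value below has a replicate error, and no test between the times was possible. The 95% intervals cover counting error only and treat regions as independent, which neighbouring regions are not.

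The 0 h regions were slightly wider and carried higher read counts than the 24 h regions. Widths at 0 h ran from 700 to 13500 bp with a median of 1500 bp (quartiles 1100 and 2250). Widths at 24 h ran from 700 to 14300 bp with a median of 1300 bp (quartiles 1050 and 1900). The lists covered 8.25 Mb and 2.72 Mb in all. Regions of at least 2 kb made up 32.6% (31.2 to 34.0%) of the 0 h list and 23.9% (21.9 to 26.0%) of the 24 h list. The authors' average read count was at least 12 in 29.98% (28.7 to 31.4%) of regions at 0 h and in 8.41% (7.16 to 9.86%) at 24 h, and whether it was scaled between libraries is not given.

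The order of the widths depended on which regions were set side by side. At an average read count of 9 the median widths were 1350 bp at 0 h (779 regions) and 1150 bp at 24 h (607 regions). At a count of 10 they were 1300 bp in both lists (1319 and 356 regions), and at 13 they were 1700 bp in 279 regions at 0 h and 2150 bp in 34 regions at 24 h. The false discovery rate (FDR) that the authors listed fell into 4 steps at 0 h and 6 steps at 24 h, the lowest written as 0. Among regions at that lowest step the 24 h regions were the wider ones, with a median of 2350 bp (287 regions) against 2050 bp at 0 h (2234 regions). The lowest step held 50.4% of the 0 h list and 17.6% of the 24 h list. With the 0 h list limited to its 1629 regions of highest read count, its median width was 2150 bp.

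**Figure D1:**
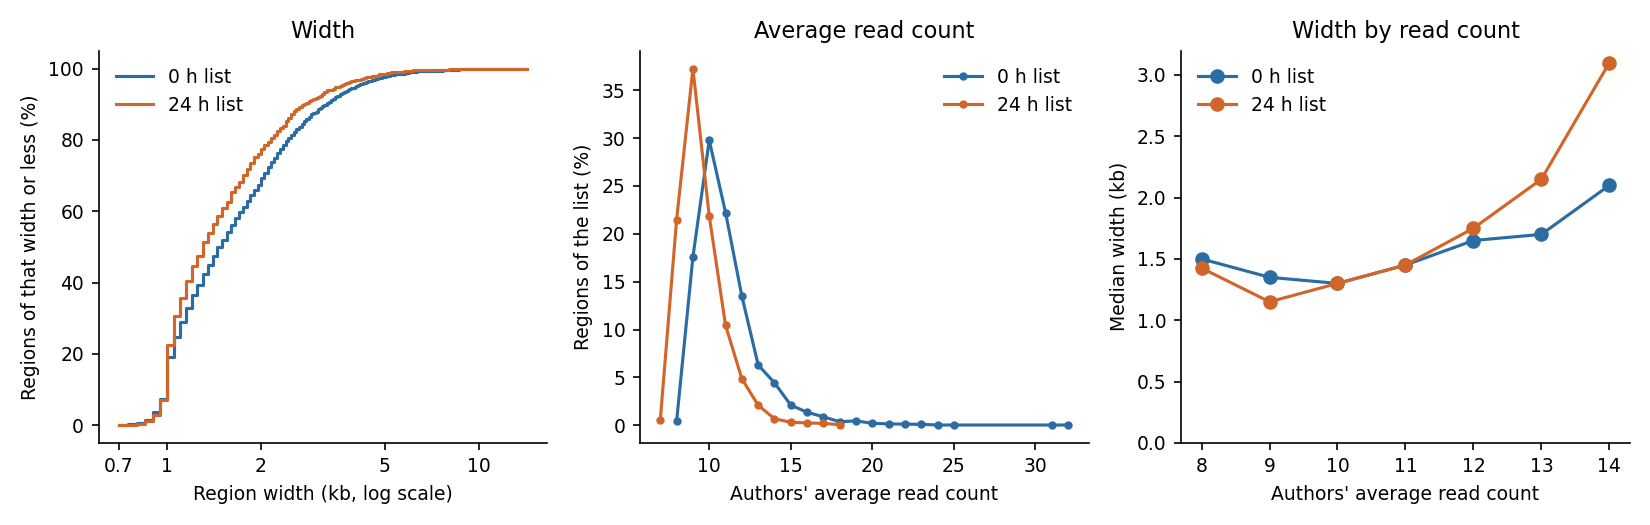
Left, cumulative share of regions (%) against width (kb, log scale); middle, share of each list (%) against the authors' average read count; right, median width (kb) for regions of 1 read count. Blue is the 0 h list and orange the 24 h list. Median widths are 1500 and 1300 bp over all regions, meet at 1300 bp at a read count of 10, and at higher counts the 24 h median is the higher or equal one.

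Of the 5 regions with the highest read counts at 0 h, 4 had another 0 h region within 10 kb, against 41.8% of the whole 0 h list. None of these 5, and none of the 5 at 24 h, had a region of the other list within 100 kb, the nearest being 180.3 and 124.9 kb away. In the whole lists only 18.8% of the 0 h and 38.7% of the 24 h regions had one that near, so 0 of 5 does not set these regions apart. A GR peak lay within 1 kb of 0 of the 5 at 0 h and of 4 of the 5 at 24 h. In the whole lists it did so for 3.93% of the 0 h and 21.2% of the 24 h regions. The region on chromosome 6 at 88292950 to 88296250 had an average read count of 31 and its next 0 h neighbour 1.45 kb away. On the same chromosome, the region at 88349400 to 88355500 had a count of 23, and that at 88387800 to 88400600 a count of 16 and a width of 12.8 kb, among the 5 widest. The nearest 24 h regions to these 3 were 1137, 1193 and 1232 kb away. The widest 0 h region, also on chromosome 6, spanned 13.5 kb at 89422900 to 89436400 with a count of 13. Chromosome 6 held 3 of the 5 widest 0 h regions and none of the 5 widest 24 h regions. It held 10.1% of the whole 0 h list and 5.22% of the whole 24 h list.

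At 24 h, 2 of the 5 regions with the highest counts had another 24 h region within 10 kb, against 30.9% of the whole 24 h list. The region on chromosome 12 at 92282950 to 92285050 had a count of 17 and stood alone, with the nearest 24 h region 4452 kb and the nearest 0 h region 4487 kb away. A GR peak of height 58 lay within 1 kb of it. The region on chromosome 16 at 84583900 to 84589000 also had a count of 17, had a 24 h neighbour at 0.7 kb and had no C/EBPβ or GR peak within 1 kb. The widest 24 h region covered 14.3 kb of chromosome 8, at 13471900 to 13486200, and had a count of 12. A further one of the 5 widest lay on that chromosome at 13411000 to 13419600, with 8.6 kb and a count of 14. The nearest 0 h regions to them were 1084 and 1150 kb away.

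Regions of both lists occurred in groups. Of the 0 h regions, 1850 (41.8%, 40.3 to 43.2%) had another 0 h region within 10 kb, and the median gap to the nearest was 17.3 kb (quartiles 2.25 and 103.2). Of the 24 h regions, 503 (30.9%, 28.7 to 33.2%) had another 24 h region within 10 kb, with a median gap of 50.5 kb (quartiles 5.35 and 440.2). The 0 h share was 10.9 points higher (8.19 to 13.5), but the 0 h list is also 2.72 times as long. With that list limited to its 1629 regions of highest read count, its share was 26.5% and the difference -4.36 points (-7.45 to -1.25). That alternative changed the length of the 0 h list and the read counts of its regions together, so their parts cannot be told apart. At the lowest FDR step (2234 and 287 regions) the 0 h share was again the higher one, by 9.93 points (4.43 to 14.8). The lists there are more unequal in length than the whole lists, so length is not set aside. Per 1000 regions of the own list, the whole-list shares within 10 kb were 9.43% at 0 h and 18.96% at 24 h. A share is bounded and does not grow in step with list length, so this division favours the shorter list. Within 1000 kb the shares were 96.1% at 0 h and 84.2% at 24 h, yet the divided values were 21.7% and 51.7%. The divided values therefore do not set length aside, and which list is the more grouped cannot be read from them.

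Regions less than 10 kb apart were joined into chains. The 0 h list formed 3288 chains, of which 2580 were lone regions, 486 were pairs and 222 held at least 3 regions. The 24 h list formed 1334 chains, of which 1128 were lone regions, 154 were pairs and 52 held at least 3. Regions in longer chains were wider. The median width rose from 1350 bp in lone regions to 1600 bp in pairs and 1700 bp in chains of at least 3 at 0 h, and from 1200 to 1450 and 1800 bp at 24 h.

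The largest 0 h chain lay on chromosome 17 at 14293550 to 14411000, where 20 regions with read counts of 9 to 19 covered 42.3% of 117.5 kb. The next held 16 regions over 81.6 kb on chromosome 19 from 17281350 to 17362900, with a median count of 13.5, no C/EBPβ 0 h peak and 7 C/EBPβ 6 h peaks. A chain of 10 regions on chromosome 2, from 178378850 to 178438700, covered 59.1% of its length. These 3 chains contained 7, 0 and 1 C/EBPβ 0 h peaks, 6, 7 and 3 C/EBPβ 6 h peaks, and 2, 4 and 1 GR peaks. No 24 h and no 240 h region lay inside them. The nearest 24 h regions were 218.4, 262.5 and 2454 kb away.

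The largest 24 h chain held 11 regions over 57.9 kb on chromosome 3 from 151966800 to 152024650, with read counts of 7 to 13. It contained 3 GR peaks and 5 C/EBPβ 6 h peaks, and the nearest 0 h region was 22.1 kb away. The next chains both lay on chromosome 17, with 8 regions from 79669250 to 79714050 and 6 regions from 3152350 to 3181200. The former held 9 C/EBPβ 6 h peaks, 2 GR peaks and 1 region of the 240 h list. The latter held 3 C/EBPβ 6 h peaks and 1 GR peak. In the order given, the 3 chains held 4, 3 and 0 C/EBPβ 0 h peaks, and their highest GR peaks had heights of 21, 40 and 120. No 0 h region lay inside any of the 3.

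By the median gap, regions of the other list were farther away than regions of the same list. No 0 h region overlapped a 24 h region, which the making of the lists can fix. A 0 h region lay within 10 kb of 131 of the 24 h regions (8.04%, 6.82 to 9.46%), although the 0 h list is the longer one, while another 24 h region lay that near to 30.9%. From the other side, 128 of the 0 h regions (2.89%, 2.44 to 3.43%) had a 24 h region within 10 kb, against 41.8% with another 0 h region. The median gap to the other list was 152.9 kb (138.5 to 169.3) from 24 h regions and 523.1 kb (482.9 to 552.3) from 0 h regions. Within 100 kb the shares were 38.7% (36.3 to 41.1%) and 18.8% (17.6 to 19.9%). These differences between the sides were not seen with the 0 h list limited to its 1629 regions of highest read count. The medians were then 542.8 kb from 24 h and 545.6 kb from 0 h regions, and the shares 16.4% and 17.6% within 100 kb and 2.27% and 2.03% within 10 kb.

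By the median gap, regions of the 240 h list were also farther away than regions of the same list. A 240 h region lay within 10 kb in 7.73% (6.53 to 9.13%) of cases at 24 h and in 5.98% (5.32 to 6.72%) at 0 h. The 240 h list is 1.77 times as long as the 0 h list, and the share of 24 h regions near it was no higher than the 8.04% near 0 h regions. The median gap to it was 128.4 kb from 24 h regions and 170.9 kb from 0 h regions. From 0 h regions it was thus nearer than the shorter 24 h list, at 523.1 kb. Within 100 kb a 240 h region was met by 45.1% of the 24 h and 36.2% of the 0 h regions. The shares for the other list there were 38.7% and 18.8%. Within 1000 kb the order changed for the 24 h regions, where 89.0% had a 240 h region, 87.8% a 0 h region and 84.2% another 24 h region. Of the 0 h regions, 96.1% had another 0 h region that near, 88.6% a 240 h region and 68.1% a 24 h region.

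**Figure D2:**
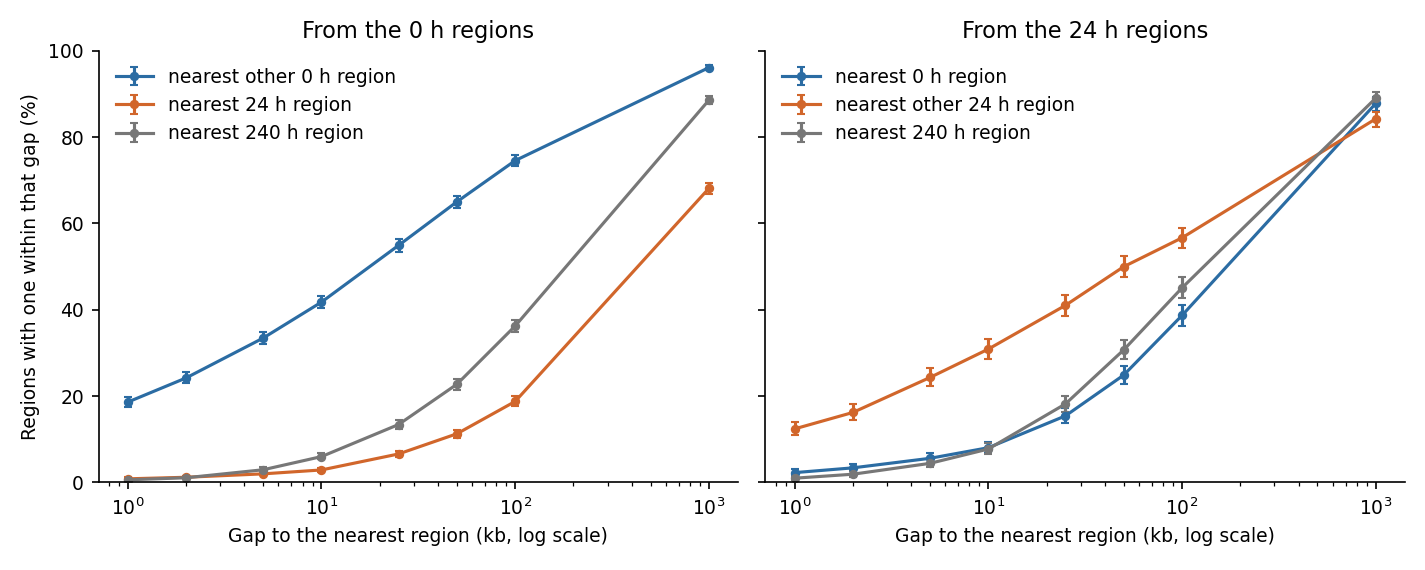
Share of regions (%, with 95% Wilson intervals) that have a region of the named list within the gap on the x axis (kb, log scale), from the 0 h regions (left) and from the 24 h regions (right). Within 10 kb the own list is met by 41.8% and 30.9% of regions and the other of these lists by 2.89% and 8.04%. At 1000 kb the curves from the 24 h regions lie between 84.2% (own list) and 89.0% (240 h list).

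With both lists pooled, the nearest region came from the same list for 85.6% (84.6 to 86.6%) of those at 0 h, which make up 73.1% of the pool. It did so for 59.7% (57.3 to 62.0%) of the 24 h regions, which make up 26.9%. With the 0 h list limited to its 1629 regions of highest read count the 2 shares were 75.3% and 74.3%. Each list then made up an equal part of the pool. Neighbouring pairs along the chromosome came from different lists in 6.33% (4.65 to 8.57%) of 600 pairs up to 1 kb apart and in 9.22% (7.55 to 11.2%) of 954 pairs at 1 to 10 kb. This rose to 21.0% (19.2 to 22.8%) at 10 to 100 kb, 38.0% (35.8 to 40.3%) at 100 kb to 1 Mb and 43.1% (39.2 to 47.0%) beyond. Over all 6038 neighbouring pairs of the whole lists it was 25.2%. As 0 h regions make up 73.1% of the pool, pairs of the same list are frequent even in a mixed order. The level that the list shares alone would give was not computed, so whether the values at any gap depart from it was not tested.

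Some long stretches held regions of 1 list alone. The longest such run at 0 h had 71 regions over 1.76 Mb on chromosome 10, from 36923400 to 38680350, with read counts from 9 to 32 and a median of 12. It held 1 region of the 240 h list, 31 C/EBPβ peaks at 0 h, 34 at 6 h and 6 GR peaks. The next had 58 regions over 2.39 Mb on chromosome 6, from 115408900 to 117794450, and there 26 regions of the 240 h list, 58 C/EBPβ peaks at 0 h, 88 at 6 h and 29 GR peaks lay among them. The longest run at 24 h had 33 regions over 1.83 Mb on chromosome 16, from 23813100 to 25644450, with counts from 8 to 14. It held 27 regions of the 240 h list, 26 C/EBPβ peaks at 0 h, 81 at 6 h and 23 GR peaks. The second had 21 regions on chromosome 13, from 90300450 to 91316800, with no 240 h region, 16 C/EBPβ peaks at 0 h, 32 at 6 h and 17 GR peaks. Runs had a median of 3 regions at 0 h and 1 at 24 h. The 0 h list is 2.72 times as long, which by itself makes its runs longer, and the part of length was not tested.

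A small set of regions lay side by side. A 0 h region was within 1 kb of 37 of the 24 h regions, and 5 pairs touched with no gap, whereas regions within a list were at least 100 bp apart. In 2 of the touching pairs, both on chromosome 11, the read count was 10 on both sides. In the first, the 0 h region lay at 16693150 to 16695150 and the 24 h region from there to 16696650. A further 24 h region, with a count of 9, lay 800 bp on the other side of that 0 h region. The second spanned 119497950 to 119501200 (0 h) and on to 119502900 (24 h). On chromosome 6 the 24 h region, at 87155050 to 87156200, ran directly into the 0 h region that ended at 87157200.

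The regions of these pairs had median widths of 1150 bp at 0 h and 1200 bp at 24 h, against 1500 and 1300 bp in the whole lists. Their median read counts were 10 and 9, against 11 and 9 in the whole lists. The lowest FDR step was listed for 3 of the 37 24 h regions (8.11%, 2.80 to 21.3%), against 17.6% in the whole list, which lies inside that interval. None of the 37 had a GR peak within 1 kb, which allows a share of up to 8.11% by 3 counts or 9.41% as the upper Wilson limit. GR lay near 20 of the 94 24 h regions (21.3%, 14.2 to 30.6%) whose nearest 0 h region was 1 to 10 kb away. C/EBPβ at 6 h lay near 6 of the 37 (16.2%, 7.65 to 31.1%) and near 34.9% of the whole list. This subdivision was chosen after the values had been seen.

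On a fixed grid of 26214 windows of 100 kb, 2556 windows held a 0 h region and 1141 held a 24 h region, each region being placed by its centre. Both lists met in 285 windows, which held 476 regions from the 0 h list (10.7%, 9.87 to 11.7%) and 398 from the 24 h list (24.4%, 22.4 to 26.6%). Only 0 h regions were found in 2271 windows and only 24 h regions in 856. A 0 h region was present in 24.98% (22.6 to 27.6%) of the windows with a 24 h region and in 9.06% (8.71 to 9.42%) of those without. The difference was 15.9 points (13.5 to 18.5), a ratio of 2.76. Of the windows without either list, 66.9% also held no other interval of the series. Over the 10528 windows that held an interval of at least 1 of the other 4 lists, the shares were 26.2% (23.6 to 29.0%) and 20.5% (19.7 to 21.3%), a difference of 5.78 points (3.06 to 8.67) and a ratio of 1.28. The size of the excess thus rested on the windows that were counted. Over all windows, with the 0 h list limited to its 1629 regions of highest count, 118 windows were mixed and the difference was 6.13 points (4.47 to 8.05). At the lowest FDR step 28 were mixed and it was 6.58 points (2.94 to 11.5).

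How many regions of a list a window held was not seen to go with the presence of the other list. Of the 137 windows with at least 5 regions of the 0 h list, 13 held a 24 h region. Of the 25 windows with at least 5 regions of the 24 h list, 6 held a 0 h region. The share of windows with a 24 h region was 11.2% (9.75 to 12.8%) at 1 0 h region, 11.5% (8.92 to 14.8%) at 2 and 10.7% (8.10 to 13.9%) at 3 or more. The share with a 0 h region was 24.8% (22.0 to 27.8%) at 1 24 h region, 29.1% (22.9 to 36.1%) at 2 and 19.6% (13.2 to 28.1%) at 3 or more. These intervals overlap within each list. Among the mixed windows, 134 held exactly 1 region of each list, 21 held at least 2 of each and 3 held at least 3 of each.

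**Figure D3:**
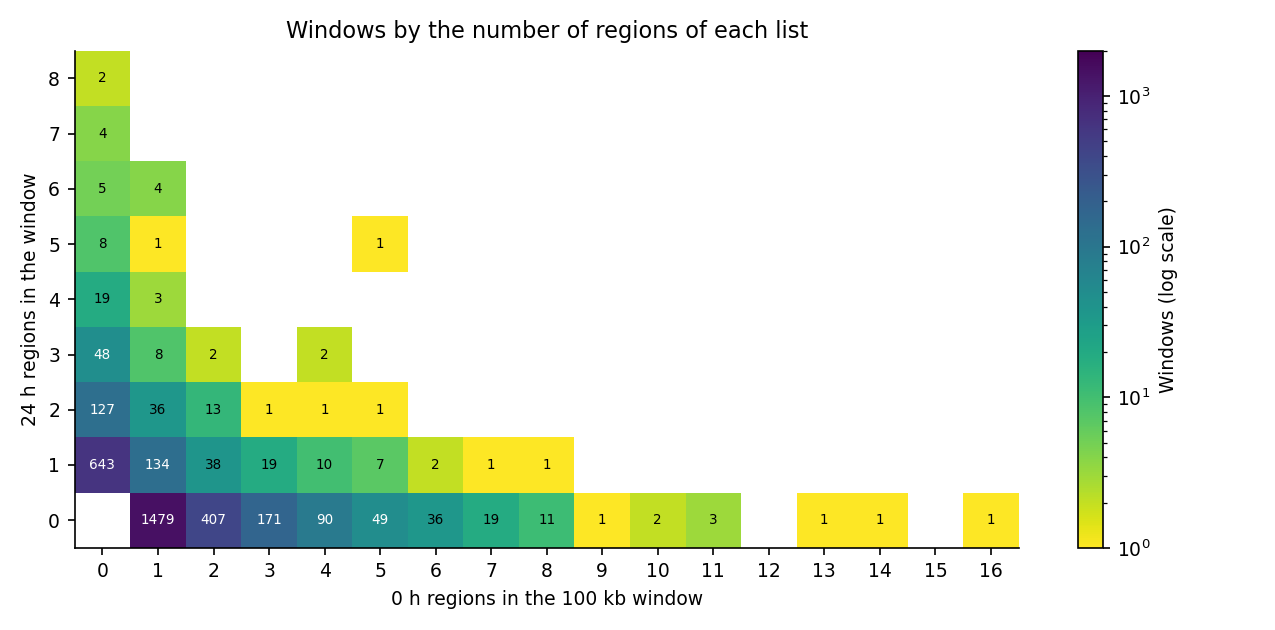
Number of 100 kb windows (written in each cell, colour on a log scale) by how many 0 h regions (x axis) and 24 h regions (y axis) they hold; windows with neither are not drawn. Counts lie along the 2 axes, with 134 windows at 1 region of each list and a lone window at 5 of each.

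The 3 windows with at least 3 regions of each list are described here. Their 0 h and 24 h regions lay at separate places, which the making of the lists can fix. The window on chromosome 5 from 74600000 to 74700000 held 5 regions of each list. Of the 24 h regions, 4 lay between 4.6 and 25.6 kb from the window's start, with a GR peak of height 61 and a C/EBPβ 6 h peak of height 39 among them. The 0 h regions lay from 47.95 to 90.65 kb, with read counts of 9 to 12. The remaining 24 h region, at 74668550 to 74670950, lay 200 bp from the 0 h region at 74667350 to 74668350.

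The window on chromosome 13 from 91300000 to 91400000 held 4 regions of the 0 h list between 28.8 and 48.85 kb, flanked by 24 h regions at 12.9 to 16.8 kb and at 59.45 to 61.45 kb. Its first 24 h regions were the end of the run of 21 given above. It held no GR peak and no C/EBPβ 0 h peak. The window on chromosome 14 from 23800000 to 23900000 held 4 regions of the 0 h list and 3 of the 24 h list. The 24 h region at 23865350 to 23866400 lay between 0 h regions, and a GR peak of height 19 fell within the 24 h region at 23849900 to 23853050. None of the 3 windows held a 240 h region.

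**Figure D4:**
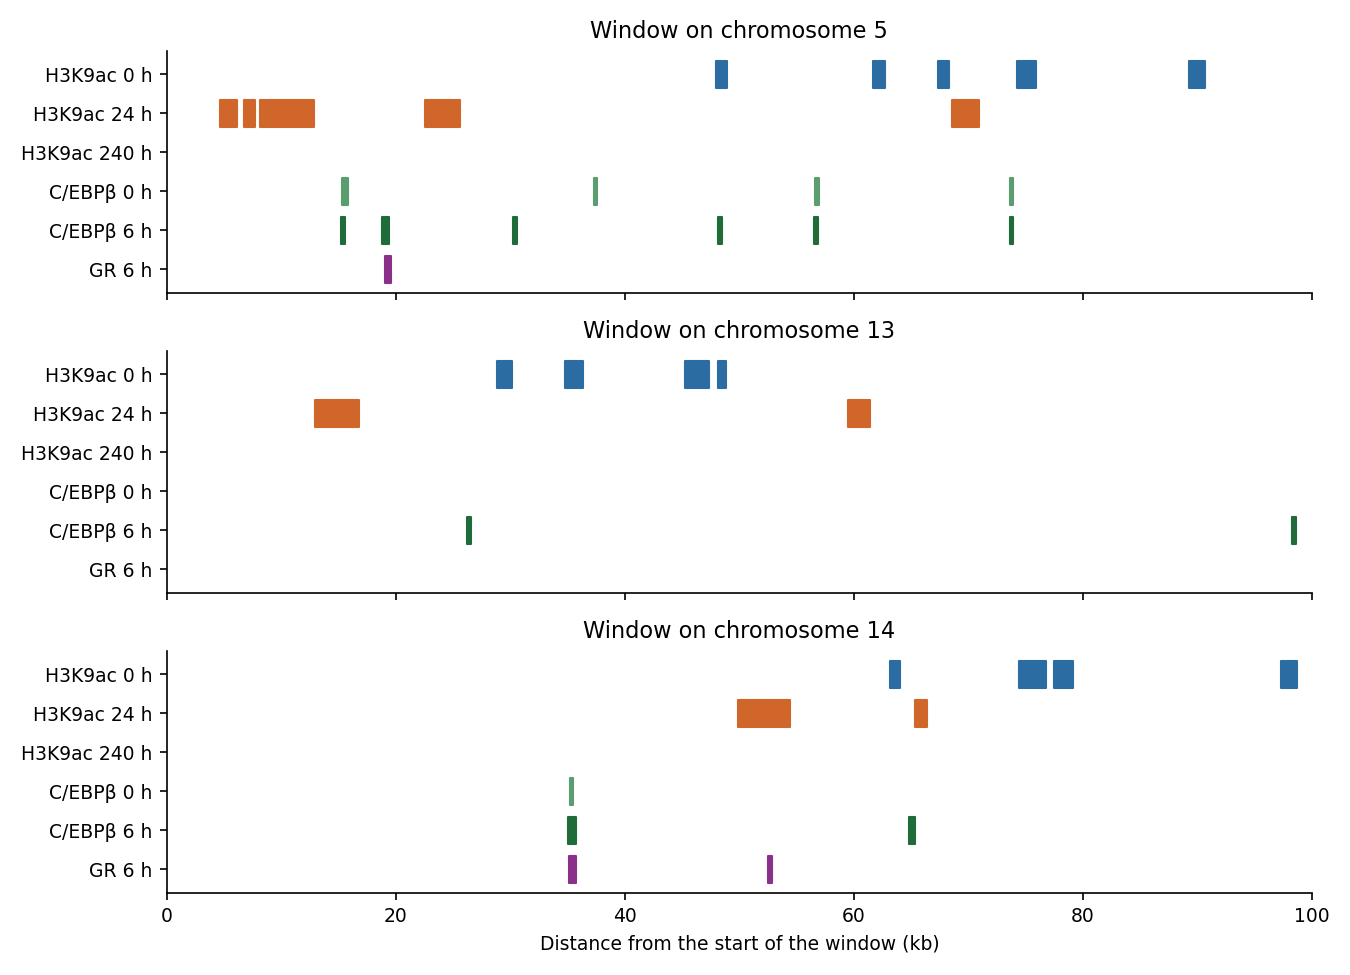
Deposited regions and peaks (bars, to scale, at least 0.3 kb wide for visibility) in the 3 windows of 100 kb with at least 3 regions of each list. The x axis is the distance from the window's start (kb). Rows are the 3 H3K9ac lists, the 2 C/EBPβ lists and the GR list; 0 h and 24 h regions do not overlap, and in the chromosome 5 window 4 of 5 regions of the 24 h list lie on 1 side of all 0 h regions.

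The windows with most regions of a single list held more regions at 0 h than at 24 h. The 0 h list is also 2.72 times as long, and the part of its length in this was not tested. At 0 h these windows lay on chromosome 17 from 14300000 (16 regions), on chromosome 19 from 17300000 (14 regions) and on chromosome 6 from 117200000 (13 regions). At 24 h they lay on chromosome 3 from 151900000 and on chromosome 16 from 24300000, with 8 regions each, and 4 further windows had 7, among them that on chromosome 2 from 30600000. The chromosome 6 window carried the most factor peaks of these, with 7 and 10 C/EBPβ peaks at 0 and 6 h, and 5 peaks of GR.

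Windows with both lists held C/EBPβ peaks most often, and held GR peaks about as often as windows with 24 h regions alone. C/EBPβ 6 h peaks were present in 89.8% (85.8 to 92.8%) of the mixed windows, 80.8% (78.1 to 83.3%) of those with 24 h regions alone, 75.7% (73.9 to 77.4%) of those with 0 h regions alone and 26.6% of those with neither. For C/EBPβ at 0 h the shares were 77.5% (72.4 to 82.0%), 59.8% (56.5 to 63.0%), 64.4% (62.4 to 66.4%) and 18.0%. GR peaks were present in 57.2% (51.4 to 62.8%) of the mixed windows and 53.0% (49.7 to 56.4%) of the 24 h windows, with overlapping intervals, and in 26.5% (24.7 to 28.3%) of the 0 h windows and 6.87% of the rest. H3K9ac 240 h regions were about equally frequent in all 3 kinds, at 28.1%, 29.4% and 25.2%. Mixed windows by definition hold at least 2 regions, and the part of that in these shares was not tested.

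Of the 24 h regions, those within 1 kb of a 0 h region had no GR peak beside them, while those at 1 to 10 kb had a share near that of the whole list. A GR peak lay within 1 kb of 15.3% (10.1 to 22.4%) of the 24 h regions that had a 0 h region within 10 kb and of 23.3% (20.8 to 26.0%) of those with none within 100 kb. The difference was -8.06 points (-13.9 to -0.485), and it was counted in the pairs under 1 kb apart, since the share at 1 to 10 kb was 21.3%, against 21.2% in the whole list. For the 0 h regions the corresponding shares were 3.91% and 3.84%, a difference of 0.0708 points (-2.26 to 5.02). C/EBPβ 6 h peaks lay near 32.0% (24.6 to 40.5%) of the 0 h regions with a 24 h region within 10 kb and near 23.8% (22.5 to 25.3%) of those without one within 100 kb. The difference was 8.18 points (0.592 to 16.8). For the 24 h regions the C/EBPβ 6 h shares were 28.2% and 36.4%, a difference of -8.19 points (-15.8 to 0.556). C/EBPβ 0 h peaks gave 1.52 points (-4.55 to 9.33) for the 0 h regions and -5.18 points (-9.27 to 0.980) for the 24 h regions. Regions with the other list within 10 kb were also narrower than those with none within 100 kb. The medians were 1200 against 1350 bp at 24 h and 1275 against 1500 bp at 0 h. What width adds to these differences was not tested.

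Grouped 24 h regions lay near factor peaks more often than lone ones. GR was within 1 kb of 30.1% (24.0 to 36.9%) of the 193 regions in chains of at least 3 and of 18.2% (16.03 to 20.5%) of the lone regions, a difference of 11.9 points (5.41 to 19.0). For C/EBPβ at 6 h the shares were 47.2% and 31.1%, a difference of 16.03 points (8.58 to 23.5), and for C/EBPβ at 0 h the difference was 5.85 points (0.875 to 11.98). In the 0 h list the same comparison gave 1.15 points for GR (-0.316 to 2.89) and 2.67 points for C/EBPβ at 6 h (-0.576 to 6.06) and 0.275 points at 0 h (-2.53 to 3.28). Regions of 1 chain can share a peak, and chained 24 h regions were also wider (1800 against 1200 bp) and more often at the lowest FDR step (30.1% against 12.9%). The part of width in these shares was not tested. Of 12 such differences (3 factor lists, both H3K9ac lists, proximity and chains), 5 had an interval without 0, and the intervals are not adjusted for their number.

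The lists were spread differently over the 20 chromosomes. Over the genome, 24 h regions made up 26.9% of the pooled regions. On chromosome 7 they made up 14.5% (11.02 to 18.8%), with 272 regions at 0 h and 46 at 24 h. On chromosome 6 they made up 15.98% (13.1 to 19.3%), with 447 and 85. On chromosome 13 the share was 40.4% (34.6 to 46.4%), with 158 and 107, and on chromosome 16 it was 36.3% (30.4 to 42.7%). Chromosome 6 held 10.1% of the 0 h list and 5.22% of the 24 h list. It held between 9.69% and 11.7% of each of the 240 h, C/EBPβ and GR lists, so there the 24 h list stood apart. Chromosome 7 held 6.14% of the 0 h list, 5.98% of the 240 h list and 2.82% of the 24 h list, with the factor lists between 3.78% and 4.07%. Leaving out chromosome 6 left 267 mixed windows and shares of 40.8% and 31.0% with a neighbour of the same list within 10 kb at 0 and 24 h.

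**Figure D5:**
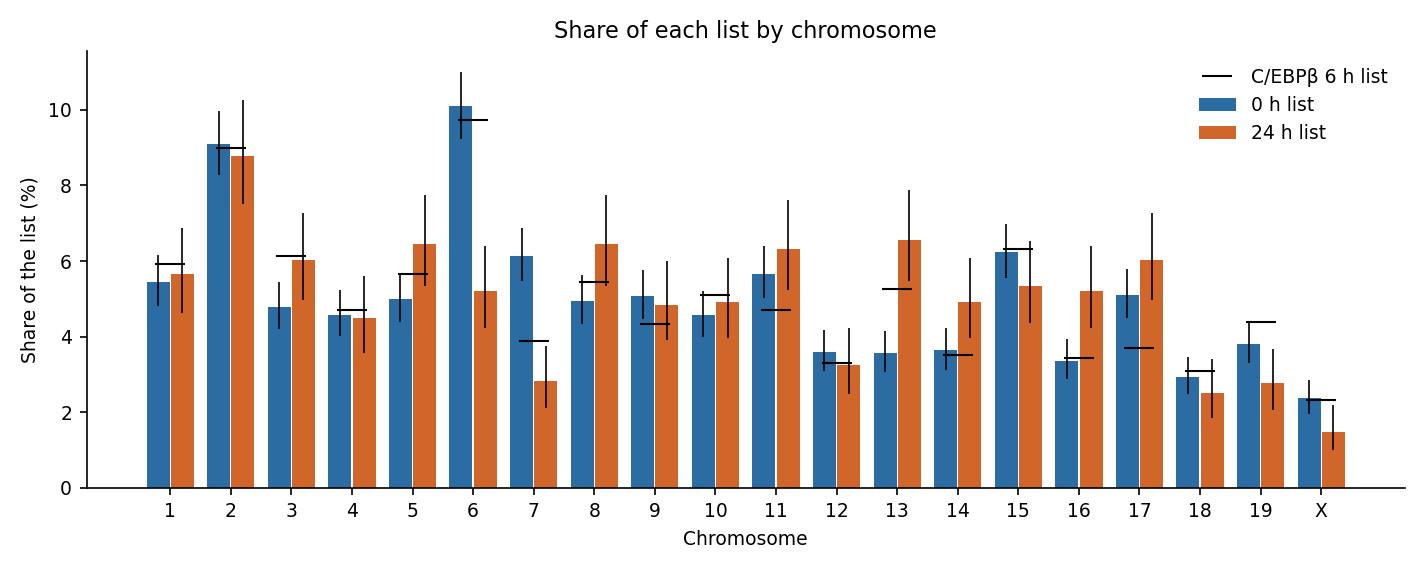
Share (%) of the 0 h list (blue bars) and of the 24 h list (orange bars) on each chromosome, with 95% Wilson intervals; black marks give the share of the C/EBPβ 6 h list. On chromosomes 6 and 7 the 24 h bar is the lower (5.22% against 10.1%, and 2.82% against 6.14%), and on chromosome 13 it is the higher (6.57% against 3.57%).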

How the data were processed

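Per the labels' protocols, ELAND aligned 36 bp reads to mm8, tolerating 2 mismatches, and only unique alignments were used, with 1 read at any start coordinate, so repeats are not covered and strong signal is capped. The caller is not given in the sources used here. The deposited H3K9ac lists give each region's false discovery rate, a q-value, and a signal, its average read count rounded to whole numbers. The deposited factor lists give a fold enrichment (a ratio) and a peak height (a signal); heights are printed for single peaks only. All were used within a list except where values of both lists are named side by side. Regions were taken as deposited. Gaps were measured edge to edge on mm8, windows lay on a grid from coordinate 0 up to the highest listed coordinate of each chromosome, and a factor peak was near a region at a gap under 1 kb. Shares have 95% Wilson intervals, differences 95% Newcombe intervals, and medians order-statistic intervals. Python 3.11.15 with numpy 2.4.6, pandas 2.3.3, scipy 1.17.1 and matplotlib 3.10.9 was used. Distances, chains and intervals were tested on simulated lists. Named regions are the 5 highest by read count and the 5 widest of each list, the 3 largest chains and the 3 closest pairs. Named windows are the 3 richest in both lists, by the smaller of the 2 counts, and the 3 richest in either list alone. The longest runs are also named and were chosen after their values were seen. The regions, comparisons and alternatives were chosen with earlier results of these data known. Reference tables on another build were not used, so no gene is named, and 4 input libraries were not analysed here.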

Additional observations from a re-analysis of the deposited data

How the results depend on the processing

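Each value is 1 library of unknown depth, so absence from a list does not show absence of acetylation. No paired analysis was possible because each group is 1 library and no result comes from a test. The alternatives listed at the outset were themselves chosen with earlier results of these data known. Under them, 52 values stayed within the interval of the reported value (a count within 1.5 times), 49 moved out of it and 2 reversed. Under the alternatives added after the present values were seen, 8 stayed and 1 moved, the width difference, which was 0 bp at an average read count of 10.

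With lists of equal length, made by keeping the 0 h regions of highest read count beside the whole 24 h list, length and selection changed together. The 0 h median width was 2150 bp, 850 bp above that at 24 h. Of the 0 h regions 26.5% then had their own list within 10 kb, and the difference from 24 h reversed to -4.36 points (9.93 at the lowest FDR step). The other list lay within 10 kb of 2.03% (0 h) and 2.27% (24 h) of regions and within 100 kb of 17.6% and 16.4%, the median distances were 545.6 and 542.8 kb, and the nearest region was of the same list in 75.3% and 74.3%. Both lists met in 118 windows, and 0 h regions were in 10.3% of windows with and 4.21% without 24 h regions, 6.13 points apart.

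With the lowest FDR step alone (2234 and 287 regions), median widths were 2050 and 2350 bp, and their difference reversed to -300 bp. The own list was near 32.2% and 22.3%. The other list lay within 10 kb of 0.358% and 2.44% and within 100 kb of 3.31% and 20.6%, with median distances of 3196 and 440.9 kb. The nearest region was of the same list in 94.5% and 49.1%, and 24 h regions are a small part of that pool. Both lists met in 28 windows, with shares of 12.2% and 5.65%, 6.58 points apart.

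With regions under 1 kb apart joined, the 0 h median width was 1550 bp, the own list was near 30.4% and 22.5%, 7.85 points apart, and the nearest region was of the same list in 83.4% and 55.4%. Between centres, 39.1% of the 0 h regions had their own list near. Within 5 kb the own list was near 33.4% and 24.3%, and within 25 kb near 54.9% and 41.0%, 13.9 points apart. Windows of 50 kb gave shares of 16.9% and 5.41%, 11.5 points apart, and windows of 200 kb gave 37.9% and 14.3%, 23.6 points apart. On autosomes alone, windows without 24 h regions held a 0 h region in 9.43%. A shifted grid, or placing regions in every window they overlap, moved no window value out of its interval.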
